A study of Homo sapiens with 6 samples.

Results

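The genes described here are 9 enzymes that make, recycle or remove the building blocks of DNA, namely DTYMK, TYMS, TK1, RRM1, RRM2, DUT, DCK, DCTPP1 and SAMHD1. They were chosen for the low level of DTYMK after knockdown of EHD1, so the values that chose them come from the same comparison that is described below. For this reason the fold changes of the 9 genes are given as a description, with standard errors (SE) and without p-values. The 9 genes are 9 of the 60676 genes in the count table, each with a single row. All 9 had at least 10 counts in at least 3 libraries, the filter that left 16785 genes for testing, and the lowest count of any of them in a library was 649 (DTYMK).

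The libraries came from TC71, a human Ewing sarcoma cell line, carrying a lentiviral construct that expresses an shRNA when doxycycline (Dox) is added. In 1 group the shRNA was a non-targeting control (shNTC+Dox, 3 libraries, called control below), and in the other it was directed against EHD1 (shEHD1+Dox, 3 libraries, called knockdown below), an ATPase that moves membrane receptors from endosomes back to the cell surface. Both groups had received 0.5 µg/ml Dox for 3 days, and libraries without Dox were not analysed here. Each group is a mixed population selected after lentiviral transduction, not a clone. Loss of EHD1 therefore cannot be told apart from other differences between these populations. Which of the study's EHD1 shRNAs was used is not given in the labels. No label ties the 3 libraries of a group to separate cultures, so p-values measure only the spread between these libraries.

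DNA synthesis needs a balanced supply of deoxynucleoside triphosphates. Ribonucleotide reductase, built from the large subunit RRM1 and the small subunit RRM2, makes deoxynucleotides from ribonucleotides. Thymidylate synthase (TYMS) and cytosolic thymidine kinase (TK1) each make dTMP, one by synthesis and the other by salvage, and both routes meet at thymidylate kinase (DTYMK), which phosphorylates dTMP to dTDP. Several of these genes are known to be transcribed mainly around S phase in dividing cells.

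Total counts were between 22711235 and 28203023 in the control libraries and between 24150135 and 30582187 in the knockdown libraries. EHD1, the target of the shRNA, was at 27.1, 28.0 and 26.4 CPM (counts scaled to library size) in the control libraries and at 7.55, 7.15 and 9.37 CPM in the knockdown libraries. It was thus at 29.6% of its control level (log2 fold change -1.76, SE 0.12, adjusted p = 1.35e-04 by edgeR's quasi-likelihood test with Benjamini-Hochberg adjustment over all genes tested). Of 10 Ewing sarcoma markers, 9 had a mean of at least 1 CPM, and the exception was CCK. Of 6 blood cell markers none reached that mean, with CD3E and HBB among those at 0 in every library, and of 6 epithelial markers only KRT8 and KRT18 did. The summed level of 6 fibroblast markers was 191 to 237 CPM in the control libraries and 359 to 417 CPM in the knockdown libraries. Most of that sum was COL3A1, which was at 194 CPM and 359 CPM, whereas DCN fell from 4.85 to 2.40 CPM and PDGFRA was at or near 0. The summed level of the 10 Ewing sarcoma markers was 1265 to 1279 CPM in the control libraries and 1135 to 1230 CPM in the knockdown libraries. By log2 fold change, BCL11B (-0.75), STEAP1 (-0.43) and PAX7 (-0.38) were lower and CD99 (0.33) higher, each at an edgeR adjusted p under 0.05. The part of all these markers in the values of the 9 genes was not tested. On a principal component analysis, control replicate 3 stood apart from the other 2 control libraries, and values without it are given beside many, not all, of the results it changes.

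DTYMK (ENSG00000168393, chromosome 2 from 241675747 to 241686944 in hg38, minus strand) was lower in every knockdown library than in any control library. Its TMM-normalized level was 71.3, 77.1 and 96.6 CPM in control replicates 1, 2 and 3, and 30.7, 26.5 and 30.9 CPM in knockdown replicates 1, 2 and 3. The control libraries spread more widely than the knockdown libraries, with control replicate 3 the highest, and the groups lay far apart. The mean was 81.7 ± 13.3 CPM in the control libraries and 29.4 ± 2.46 CPM in the knockdown libraries (SD, n = 3 each). The log2 fold change was -1.47 (SE 0.12), a 2.78-fold lower level. Of the 16785 genes tested, 182 had a lower log2 fold change. With single libraries left out, the log2 fold change of DTYMK was smallest in size at -1.34, without control replicate 3, and largest at -1.56, when control replicate 1 was the one omitted. In bulk RNA, a smaller share of cells that transcribe a gene and less RNA per cell cannot be told apart.

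**Figure D1:**
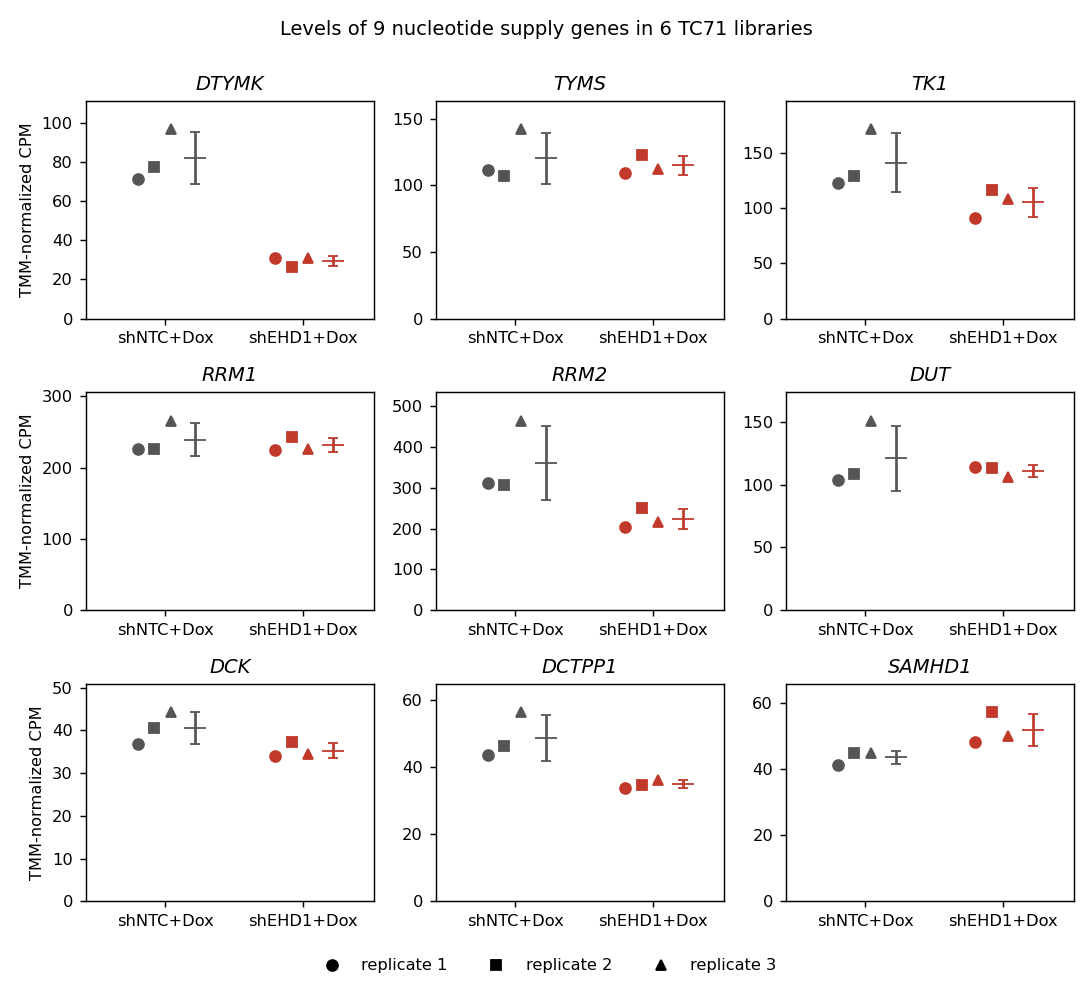
TMM-normalized CPM of the 9 genes in each library, with 1 panel per gene, an axis from 0, symbols for the replicate number, and the mean ± SD of each group (n = 3) as a horizontal line with bars. The DTYMK libraries form groups that lie far apart (71.3 to 96.6 against 26.5 to 30.9 CPM), while those of TYMS, RRM1, DUT and DCK overlap.

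The stretches before the transcript starts of DTYMK, RRM2 and TK1 are shown because these 3 genes were lower and hold repeated CCAAT boxes. SAMHD1, which was higher, also holds repeated CCAAT boxes, and its stretch is not shown. Those of TYMS and DCK are shown because they hold the letters bound by E2F factors. They come from the promoter table of RefSeq on GRCh38.p14, in which all 9 genes were found, and are written 5′ to 3′ on the strand of the gene. Capitals mark CCAAT (or its reverse complement ATTGG) in DTYMK, RRM2 and TK1, the cell cycle homology word TTCGAA in DTYMK, and the E2F word in TYMS and DCK.
DTYMK, minus strand, chr2:241686816-241687065, the 250 bases before the start: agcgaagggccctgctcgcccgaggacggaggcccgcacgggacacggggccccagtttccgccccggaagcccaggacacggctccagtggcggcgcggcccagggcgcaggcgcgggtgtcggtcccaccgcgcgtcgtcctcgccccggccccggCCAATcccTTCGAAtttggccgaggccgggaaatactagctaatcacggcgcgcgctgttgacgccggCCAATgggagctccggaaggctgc
RRM2, plus strand, chr2:10122589-10122738, the 150 bases before the start: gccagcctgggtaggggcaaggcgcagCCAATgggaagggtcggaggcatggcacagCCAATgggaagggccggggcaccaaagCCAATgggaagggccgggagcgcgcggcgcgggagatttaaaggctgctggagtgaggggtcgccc
TK1, minus strand, chr17:78187053-78187202, the 150 bases before the start: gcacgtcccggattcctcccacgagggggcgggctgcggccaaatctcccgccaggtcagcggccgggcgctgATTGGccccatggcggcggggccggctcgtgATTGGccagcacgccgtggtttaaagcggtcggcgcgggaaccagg
TYMS, plus strand, chr18:657603-657652, the 50 bases before the start: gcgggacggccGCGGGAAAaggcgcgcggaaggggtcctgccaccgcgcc
DCK, plus strand, chr4:70993599-70993678, from 50 bases before the start to 30 after it: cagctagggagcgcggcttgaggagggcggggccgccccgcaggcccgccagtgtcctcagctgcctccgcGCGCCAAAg

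The motifs were searched on both strands of the whole RefSeq window, 250 bases before to 50 after the start. CCAAT, the box bound by NF-Y, was in 5 of the 9 windows and in 34.6% of 35116 promoters. It began 92 and 24 bases before the start of DTYMK, at 123, 93 and 66 bases in RRM2, and at 77 and 46 bases in TK1. It was also at 28 bases in RRM1, whose groups overlapped. In SAMHD1, which was higher in the knockdown, it was at 49 and 38 bases (both genes are described below). The share of all promoters that hold repeated CCAAT boxes was not worked out. The cell cycle homology word (TTTGAA or TTCGAA) was in 2 of the 9, DTYMK at 84 bases and RRM1 at 199 bases before the start, and in 16.4% of promoters. The E2F word (TTT, then any of GG, CG, CC and GC, then CGC) was in 2 of the 9, TYMS at 39 bases before and DCK at 21 bases after the start, and in 3.3% of promoters. GGGCGG, the box bound by SP factors, was in 6 of the 9 and in 45.0% of promoters, and none of the matches of different motifs shared a base. A match describes the letters of a window and not a site in use, and the windows of RRM1 and DCTPP1 do not begin at the start of their MANE Select transcript, the reference transcript of each gene. DCTPP1 and DUT held SP letters alone and TYMS the E2F word alone.

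**Figure D2:**
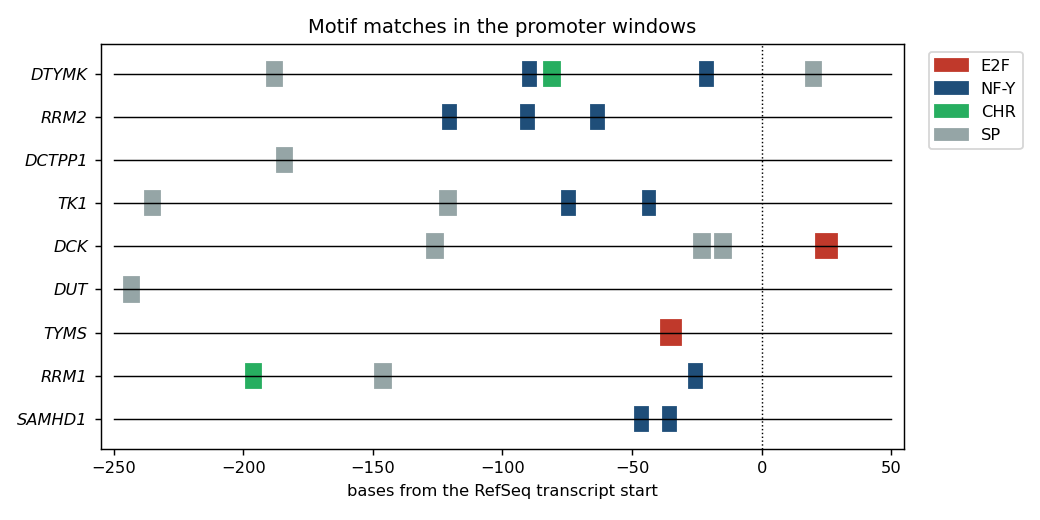
Positions of the 4 motifs in the promoter windows of the 9 genes, as bases from the RefSeq transcript start (dotted line), with 1 row per gene ordered by fold change. CCAAT boxes (NF-Y) lie within 123 bases before the start in DTYMK, RRM2, TK1, RRM1 and SAMHD1.

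The other enzymes of the thymidylate branch had smaller fold changes than DTYMK. TYMS (ENSG00000176890, chromosome 18 from 657653 to 673578), which methylates dUMP to dTMP, was at 111, 107 and 142 CPM in the control libraries and at 110, 123 and 112 CPM in the knockdown libraries. Its groups overlapped, with control replicate 3 the highest library, and its log2 fold change of -0.06 (SE 0.11) became 0.07 without that library. TK1 (ENSG00000167900, chromosome 17 from 78174091 to 78187233), which phosphorylates thymidine taken up from outside, was at 123, 130 and 172 CPM against 91.0, 116 and 109 CPM. Every knockdown library was below every control library, but knockdown replicate 2 was closer to the lowest control library than that library was to the highest. The log2 fold change of TK1 was -0.42 (SE 0.14), and -0.26 without control replicate 3. DUT (ENSG00000128951, chromosome 15 from 48331011 to 48343373), which hydrolyses dUTP and so keeps uracil out of DNA while providing dUMP, was at 104, 108 and 151 CPM against 114, 113 and 106 CPM. Its groups overlapped, and its log2 fold change of -0.12 (SE 0.14) became 0.07 without control replicate 3.

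The subunits of ribonucleotide reductase differed from each other. RRM2 (ENSG00000171848, chromosome 2 from 10120698 to 10211725), the small subunit made for S phase, was at 313, 306 and 465 CPM in the control libraries and at 203, 251 and 216 CPM in the knockdown libraries. The groups did not overlap, and control replicate 3 lay well above all other libraries. The log2 fold change of RRM2 was -0.69 (SE 0.17), and it was -0.47 without control replicate 3. RRM1 (ENSG00000167325, chromosome 11 from 4094707 to 4138932), the large subunit, was at 226, 225 and 266 CPM against 224, 243 and 227 CPM. Its groups overlapped, with a log2 fold change of -0.05 (SE 0.08) that became 0.03 without control replicate 3. Per length of the MANE Select transcript, the ratio of RRM2 to RRM1 was 1.33, 1.31 and 1.69 in the control libraries and 0.872, 0.997 and 0.920 in the knockdown libraries. The ratio was lower in every knockdown library than in any control library. Whether it lies above 1 depends on the length used, since with the length of all annotated exons the control mean of RRM2 (39.5 CPM per kilobase) was below that of RRM1 (56.5).

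Of the enzymes that salvage or remove deoxynucleotides, DCTPP1 was lower and SAMHD1 higher. DCTPP1 (ENSG00000179958, chromosome 16 from 30423615 to 30430030), a pyrophosphatase that clears dCTP and its modified forms, was at 43.4, 46.1 and 56.3 CPM in the control libraries and at 33.9, 34.7 and 36.0 CPM in the knockdown libraries. The groups did not overlap, and the knockdown libraries were close to each other. Its log2 fold change was -0.48 (SE 0.10), and -0.36 without control replicate 3. SAMHD1 (ENSG00000101347, chromosome 20 from 36890229 to 36951893), which breaks deoxynucleoside triphosphates down to nucleosides, was at 41.3, 44.7 and 44.8 CPM against 48.1, 57.3 and 50.0 CPM. Every knockdown library was above every control library, and its log2 fold change of 0.25 (SE 0.09) was the only positive one of the 9. DCK (ENSG00000156136, chromosome 4 from 70992538 to 71030914), which phosphorylates deoxycytidine and also purine deoxynucleosides, was at 36.9, 40.5 and 44.3 CPM against 34.0, 37.3 and 34.5 CPM. Knockdown replicate 2 lay above control replicate 1, so the groups of DCK overlapped, and its log2 fold change was -0.20 (SE 0.09), and -0.14 without control replicate 3.

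Over the 9 genes, the groups did not overlap and lay lower in the knockdown for 4 (DTYMK, RRM2, DCTPP1 and TK1), lay higher for 1 (SAMHD1) and overlapped for 4 (DCK, DUT, TYMS and RRM1). Among all genes tested, 19.4% were lower without overlap and 19.9% higher without overlap. At an adjusted p under 0.05 in edgeR's quasi-likelihood test, 3 of the 9 were called lower (DTYMK, RRM2 and DCTPP1), against 8.75% of all genes tested, and only DTYMK was also at least 2-fold lower, against 1.74%. DESeq2 called 4 of the 9 lower, against 1859 of the 16785 genes tested. At an unadjusted p under 0.05 in edgeR, 5 of the 9 were lower, and the share of all genes at that threshold was not worked out. None of the 9 was called higher by edgeR or DESeq2 (1 at an unadjusted p under 0.05 in edgeR), against 8.59% of all genes by edgeR and 1755 genes by DESeq2. Nothing is read from these counts, since the genes were chosen on this comparison. Of the 3 calls, 1 was left when either knockdown replicate 1 or replicate 3 was omitted. With knockdown replicate 2 omitted, or with no filter on low counts, 2 were called lower.

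**Figure D3:**
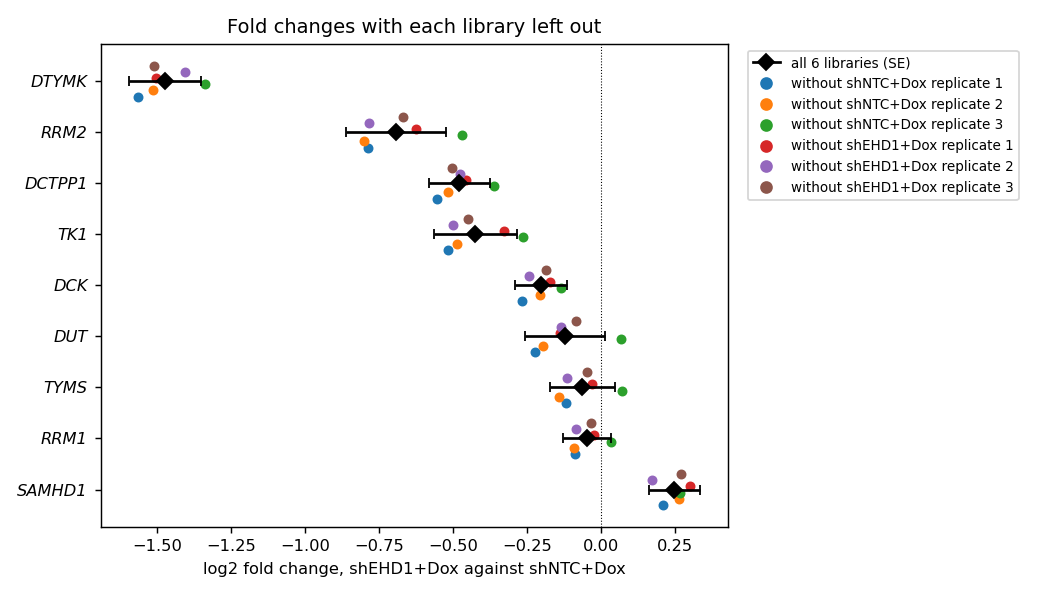
Log2 fold change of each of the 9 genes over all 6 libraries (black diamonds, bars 1 SE) and with each library left out (colored points). DTYMK stays between -1.56 and -1.34, whereas DUT, TYMS and RRM1 move to positive values without control replicate 3 (0.07, 0.07 and 0.03).

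The order of the transcript levels differed between the groups. Per kilobase of the MANE Select transcript, the control libraries had 111 ± 27.6 CPM for RRM2, 98.9 ± 18.4 for TK1, 77.7 ± 12.6 for DTYMK, 76.1 ± 7.37 for RRM1 and 74.5 ± 11.9 for TYMS (SD, n = 3). DUT followed at 56.5 ± 12.2, DCTPP1 at 41.2 ± 5.77, DCK at 16.2 ± 1.47 and SAMHD1 at 9.38 ± 0.43. RRM2 and TK1 differed by less than their SD, and DTYMK, RRM1 and TYMS differed from each other by less than the SD of any of them. In the knockdown libraries, RRM1 (73.7 ± 3.28), TK1 (73.6 ± 9.07), TYMS (71.3 ± 4.35) and RRM2 (68.6 ± 7.69) stood at the top with neighbors that differed by less than their SD. DUT came next at 51.9 ± 2.23, and DTYMK was now at 27.9 ± 2.34, within its SD of DCTPP1 at 29.5 ± 0.93. DCK and SAMHD1 remained the lowest of the 9, at 14.1 ± 0.71 and 11.1 ± 1.04. The order depends on the length used. With the length of all annotated exons, which is 9153 bases for RRM2 (against 3258), the controls had 76.7 CPM per kilobase for TK1, 56.5 for RRM1, 49.6 for TYMS and 39.5 for RRM2. DTYMK was then at 34.1, below these 4 and next to DUT at 32.9 and DCTPP1 at 31.1.

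Ratios within a library, again per length, show how far DTYMK lay from its neighbors in the pathway. The ratio of DTYMK to TYMS was 0.98, 1.11 and 1.04 in the control libraries and 0.43, 0.33 and 0.42 in the knockdown libraries. The ratio of DTYMK to TK1 was 0.79, 0.81 and 0.77 against 0.46, 0.31 and 0.39. In both ratios the control libraries were close to each other, control replicate 3 included, and all knockdown libraries were below them. The size of a ratio depends on the transcript lengths, while its relative difference between the groups does not. No ratio was tested, since each holds a gene chosen on this comparison.

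All 9 genes had their highest control value in control replicate 3, although for SAMHD1 it exceeded replicate 2 by a small margin (44.8 against 44.7 CPM). Genes of DNA replication and S phase, a list of 55 that leaves out the 9, varied in the same libraries. Their mean log2 CPM, relative to the mean of the 6 libraries, was 0.13, 0.09 and 0.47 in the control libraries and -0.35, -0.04 and -0.30 in the knockdown libraries. Of these 55 genes, 27 fell and none rose (edgeR adjusted p under 0.05; none rose by DESeq2 or at an unadjusted p under 0.05), and their median log2 fold change was -0.43, against 0.00 for all genes tested. Of all genes tested, edgeR called 8.75% lower and 8.59% higher. The largest falls among those called were CCNE2, a cyclin of the G1 to S transition (-1.30, SE 0.31, edgeR adjusted p = 0.0307), UHRF1, which brings DNA methylation to replicated DNA (-1.08, SE 0.28, edgeR adjusted p = 0.0483), and PCNA, the sliding clamp (-1.05, SE 0.16, edgeR adjusted p = 0.00444). PCNA passed whichever library was left out, CCNE2 did not pass without control replicate 1 or knockdown replicate 1 or 3 (edgeR adjusted p from 0.0540 to 0.100), and UHRF1 did not pass when any single control library, or knockdown replicate 1 or 3, was omitted (edgeR adjusted p from 0.0571 to 0.129). With no filter on low counts neither CCNE2 (edgeR adjusted p = 0.0680) nor UHRF1 (edgeR adjusted p = 0.122) passed. Without control replicate 3, 21 of the 55 fell and the median was -0.30, with CCNE2 at -0.99, UHRF1 at -0.82 and PCNA at -0.88. When knockdown replicate 1 or 3 was omitted, 6 fell. A list of 46 mitotic genes had 3 that fell and 8 that rose, with a median of 0.09, which was 0.16 without control replicate 3 and 0.05 without control replicate 2. The 3 that fell are no more than the 8.75% of all genes called lower. Those that fell were the phosphatase CDC25B (-0.45, SE 0.07, edgeR adjusted p = 0.00431), the spindle protein NUSAP1 (-0.39, SE 0.08, edgeR adjusted p = 0.0130) and the topoisomerase TOP2A (-0.29, SE 0.08, edgeR adjusted p = 0.0313). Those that rose, named here after their values were seen, were BUB1, DLGAP5, CCNB1, CCNB2, MKI67, CDC20, PSRC1 and BIRC5, by 0.30 to 0.38 on the log2 scale (edgeR adjusted p from 0.0110 to 0.0406). BUB1 belongs to the spindle checkpoint, and CCNB1 and CCNB2 are cyclins of mitotic entry. NUSAP1 did not pass without knockdown replicate 3 (edgeR adjusted p = 0.0653), nor TOP2A without control replicate 2 or knockdown replicate 1 or 3 (edgeR adjusted p from 0.0650 to 0.124). The count of mitotic genes that rose was 15 without control replicate 3, 1 and 2 without control replicates 1 and 2, and 0 and 3 without knockdown replicates 1 and 3.

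Set against the S phase list in the same library, the 9 genes lay on different sides. The difference between DTYMK and the S phase mean was 0.42, 0.57 and 0.52 in the control libraries and -0.31, -0.84 and -0.36 in the knockdown libraries, each relative to the mean of the 6 libraries. Beyond the S phase mean, DTYMK dropped by 1.01 on the log2 scale. For TK1 and DCTPP1 the corresponding difference was 0.04 and -0.01, so both differed between the groups about as much as that list. RRM2 changed by -0.21, and TYMS, RRM1, DUT and DCK by 0.40, 0.41, 0.36 and 0.26, since they were near their control level where the S phase mean was lower. Relative to the S phase mean, SAMHD1 changed by 0.70. The part of the S phase genes in the values of the 9 was not tested.

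**Figure D4:**
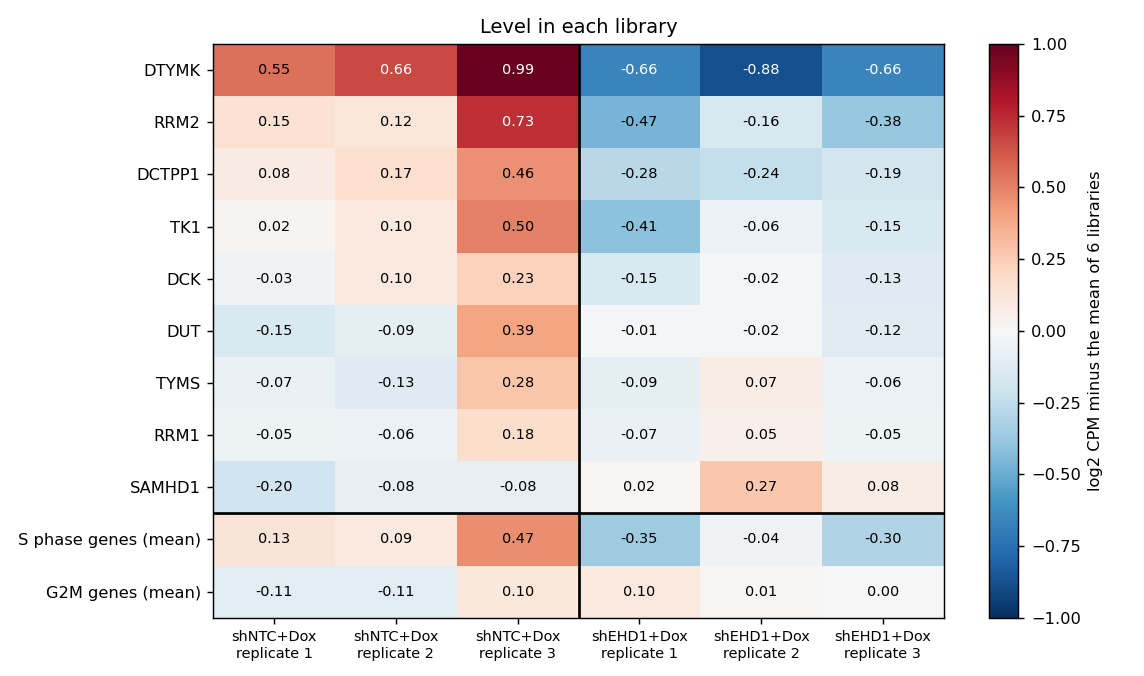
Log2 CPM of the 9 genes, and mean log2 CPM of 55 S phase and 46 G2M genes, in each library relative to the mean of the 6 libraries, as a color scale with the values printed. Control replicate 3 is the highest library in all rows but SAMHD1 (G2M genes at 0.10), and DTYMK is the row with the widest range (0.99 to -0.88).

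Of 70 other genes of nucleotide metabolism, 67 were tested, and most did not pass the test. In edgeR's quasi-likelihood test 6 fell and 4 rose, the median log2 fold change was -0.10, and 43 had a negative and 24 a positive sign. These counts of calls are near the shares of all genes tested, 8.75% lower and 8.59% higher, so the list did not stand out by them. DESeq2 called 12 lower and 6 higher, and 1859 lower and 1755 higher among all genes tested. CMPK2, NUDT16 and SLC28A3 had too few counts.

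Of the partners of the 9 genes, RRM2B and DGUOK rose. RRM2B, the ribonucleotide reductase subunit induced by p53 and used outside S phase, rose from 41.9, 45.7 and 35.2 CPM to 56.0, 62.0 and 57.4 CPM (log2 fold change 0.51, SE 0.10, edgeR adjusted p = 0.0103). Its groups did not overlap, and the lowest control library was control replicate 3, where RRM2 was highest. Without that library the log2 fold change of RRM2B was 0.42. The ratio of RRM2B to RRM2 per length was 0.09, 0.10 and 0.05 in the control libraries and 0.19, 0.17 and 0.18 in the knockdown libraries. Of the mitochondrial salvage kinases, DGUOK, the partner of DCK, rose from 50.6, 50.4 and 49.9 CPM to 64.3, 58.3 and 67.0 CPM (0.33, SE 0.07, edgeR adjusted p = 0.0182). TK2, the partner of TK1, was at 15.7, 14.3 and 18.8 CPM against 17.5, 15.2 and 17.4 CPM and did not pass (0.04, SE 0.13, edgeR adjusted p = 0.846). RRM2B passed whichever library was left out, while DGUOK did not pass without control replicate 1 or 2 or knockdown replicate 1 or 3 (edgeR adjusted p from 0.0538 to 0.0785).

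Upstream of the deoxynucleotides, CTPS1, which makes CTP from UTP, fell from 190, 178 and 207 CPM to 135, 157 and 138 CPM (-0.42, SE 0.08, edgeR adjusted p = 0.0122). Its call was lost when knockdown replicate 1 or 3 was omitted (edgeR adjusted p of 0.0605 and 0.0598). The other 4 genes of pyrimidine synthesis and all 13 of purine synthesis did not pass in edgeR. Of the 5 pyrimidine genes, CTPS1 included, 3 were lower and 1 higher at an unadjusted p under 0.05, and DESeq2 called 2 lower and 1 higher. Of the purine genes, 3 were lower and none higher at an unadjusted p under 0.05, and DESeq2 called 1 lower. None of 12 nucleoside mono- and diphosphate kinases, the family that acts beside DTYMK, passed in edgeR, although 3 were lower and 2 higher at an unadjusted p under 0.05 and DESeq2 called 3 lower. The share of all genes at an unadjusted p under 0.05 was not worked out. In salvage of ribonucleosides, the uridine-cytidine kinase UCK2 fell (-0.27, SE 0.06, edgeR adjusted p = 0.0184) and the uridine phosphorylase UPP1 rose from a low level (0.58 to 1.38 CPM, log2 fold change 1.24, SE 0.35, edgeR adjusted p = 0.0398). UPP1 did not pass when any single library was left out (edgeR adjusted p from 0.0587 to 0.154), nor UCK2 without control replicate 1 or 2 or knockdown replicate 1 or 3 (0.0519 to 0.0736).

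Among transporters and enzymes that clean the pool, SLC29A2, an equilibrative nucleoside carrier, had the lowest p of the list. It was at 97.0, 94.3 and 91.7 CPM in the control libraries and at 56.8, 53.9 and 59.3 CPM in the knockdown libraries (-0.73, SE 0.07, edgeR adjusted p = 3.90e-04). Both groups were tight, and control replicate 3 was here the lowest control library. NUDT1, which hydrolyses oxidized purine nucleotides, fell from 27.7, 28.9 and 32.1 CPM to 21.4, 20.6 and 21.8 CPM (-0.48, SE 0.09, edgeR adjusted p = 0.00826). The nucleotidase NT5C2 rose (0.29, SE 0.08, edgeR adjusted p = 0.0351). SLC29A2 and NUDT1 passed whichever library was left out, whereas NT5C2 lost its call with any library but control replicate 3 omitted (edgeR adjusted p from 0.0744 to 0.109).

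**Figure D5:**
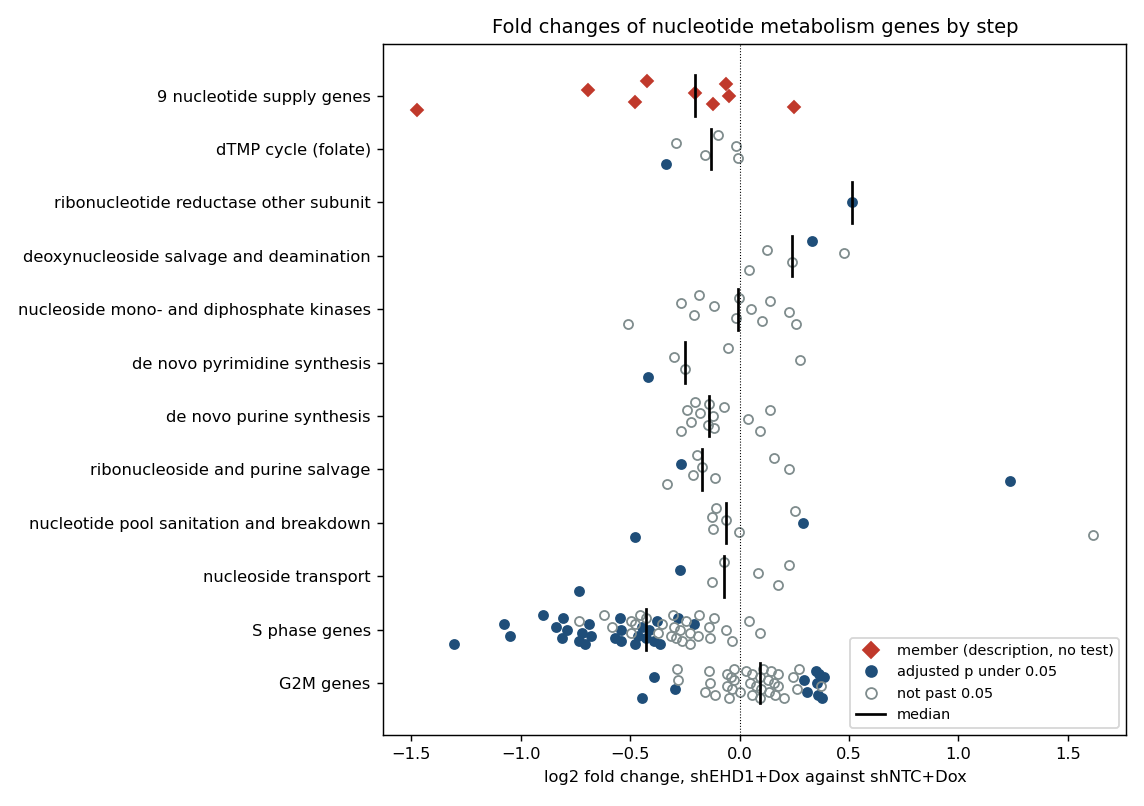
Log2 fold changes of the 9 genes (red diamonds, no test), of the 67 other nucleotide genes by step, and of 55 S phase and 46 G2M genes, with filled points at an edgeR adjusted p under 0.05 and a black line at each median. DTYMK lies at -1.47, below every other point, and the S phase median (-0.43) lies below the medians of all other rows.

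Around DTYMK, its divergent neighbor ING5 was also lower. Of 24 annotated genes that start within 250000 bases of the start of DTYMK, 23 were in the table and 10 were tested. ING5, a reader of histone methylation, fell from 68.3, 64.3 and 81.8 CPM to 55.7, 53.3 and 55.5 CPM (-0.38, SE 0.09, edgeR adjusted p = 0.0271). Its log2 fold change was -0.27 without control replicate 3. In RefSeq the starts of DTYMK and ING5 lie 205 bases apart on opposite strands, so that their promoter windows share 296 bases, including the sequence printed above. The log2 fold change of ING5 was much smaller than that of DTYMK, and its call was lost without control replicate 1 and without each of the knockdown libraries (edgeR adjusted p from 0.0516 to 0.0839). STK25 (-0.09, edgeR adjusted p = 0.369), BOK (0.08, edgeR adjusted p = 0.717), THAP4 (0.06, edgeR adjusted p = 0.578), ATG4B (-0.10, edgeR adjusted p = 0.364) and D2HGDH (-0.01, edgeR adjusted p = 0.922) did not pass. GAL3ST2, NEU4, AC131097.2 and LINC01237 were at 1.84 CPM or less in both groups and did not pass either.

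Several of the 9 genes share exons with another gene, and the library kit does not keep the strand, so reads there cannot be assigned with certainty. DTYMK, TK1 and RRM2 share none. TYMS shares 47.9% of its annotated exon bases, mainly with ENOSF1 on the other strand, and ENOSF1 itself fell from 70.5 ± 10.9 to 49.8 ± 0.34 CPM (SD, n = 3; -0.50, SE 0.11, edgeR adjusted p = 0.0138, and 0.0563 or 0.0566 when knockdown replicate 1 or 3 was omitted). The log2 fold change of ENOSF1 was -0.37 without control replicate 3. With the counts of TYMS and the genes it overlaps summed, the log2 fold change was -0.21 in place of -0.06. DCTPP1 shares 41.2% with ZNF771, which was at 8.54 and 8.91 CPM (0.06, edgeR adjusted p = 0.821), and the sum gave -0.38 in place of -0.48. DCK shares 6.41% with MOB1B on the same strand, which fell (-0.37, SE 0.07, edgeR adjusted p = 0.00829), and the sum gave -0.30 in place of -0.20. MOB1B had the higher level of this pair, 51.6 against 40.6 CPM in the controls. Each sum takes in all counts of the overlapping genes, so it does not measure how far reads of shared bases move a gene. For DUT (14.5% shared), SAMHD1 (9.86%) and RRM1 (1.49%) the sums were at -0.12, 0.25 and -0.05, as without them. The other genes that share exons, TYMSOS, RRM1-AS1, DUT-AS1 and TLDC2, were at 1.85 CPM or less in both groups. Pseudogenes of DUT and RRM2 held at most 0.21% of the count of the parent gene, and those of TYMS had no count.

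By Pearson's r of log2 CPM over the 6 libraries, the genes most like DTYMK among those tested were HMGN1 (0.999), PDPR (0.998), ZFP62 (0.998), ISG20L2 (0.997) and SCAMP2 (0.997). SCAMP2, a membrane protein of recycling vesicles, was at 57.3, 58.6 and 69.4 CPM in the control libraries and at 21.5, 17.9 and 22.3 CPM in the knockdown libraries, about the size of the DTYMK change, and the other 4 were lower by 0.36 to 0.51 on the log2 scale. Among the 8 other enzymes, r with DTYMK was 0.96 for DCTPP1, 0.88 for RRM2, 0.81 for DCK, 0.81 for TK1, 0.43 for DUT, 0.35 for RRM1 and 0.30 for TYMS, and -0.82 for SAMHD1. The 6 libraries form 2 groups and share their depth and scaling across genes, so a gene that separates the groups tends to an r far from 0.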

How the data were processed

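RNA-seq libraries of 6 TC71 samples were compared, 3 per group, with groups and replicate numbers taken from the labels. The authors prepared libraries with a kit that does not keep strand and sequenced paired ends. The submitters' processing notes name STAR 2.7.3a, DESeq2 and hg38, whereas the paper's methods name another aligner (hisat2) with StringTie, so how reads of shared exons were counted is not settled. The deposited values are whole-number counts per gene, not normalized.

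A gene needed 10 counts or more in 3 of the libraries, which left 16785. These were tested by the robust quasi-likelihood F test of edgeR 4.0.16 (R 4.3.3) after TMM scaling, with Benjamini-Hochberg adjustment. The SE of a log2 fold change was taken from that test, as its size divided by the square root of F. Log2 CPM used a prior count of 2. The tests were checked on simulated data. Totals ranged from 22711235 to 30582187, and replicates differed by more than counting noise (chi-square per degree of freedom at least 5.56), with a typical variation of 15.0%. With 3 libraries against 3, an exact permutation test cannot give a p below 0.1, so none is printed.

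Gene positions, exons and MANE Select lengths came from GENCODE 44 on GRCh38 (hg38), in which 99.5% of gene identifiers were found. The 9 genes and all lists were chosen with earlier results of these data known. The genes named were the 9 and EHD1, up to 3 per step with the largest change at an adjusted p under 0.05, partners of the 9 (RRM2B, TK2 and DGUOK), up to 3 of the largest falls of the S phase and G2M lists, tested neighbors of DTYMK, genes that share exons with the 9, and the 5 genes most like DTYMK. Some genes that this rule names are not reported here. Alternatives were DESeq2 1.42.0 (size factors in edgeR, and its Wald test), other filters, a block for the replicate number, leaving out single libraries, a prior count of 0.5, summed counts of genes that share exons, a 2-fold threshold and a narrower promoter window. The length of all exons was added after the data were seen.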

Additional observations from a re-analysis of the deposited data

How the results depend on the processing

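The log2 fold changes of the 9 genes moved by less than the spread between replicates under each alternative that was run, and those of DTYMK, RRM2, DCTPP1, TK1, DCK and SAMHD1 kept their sign. Replicate numbers did not pair the libraries (correlation of deviations from the group means, across genes, -0.0593 to 0.0720 for same-numbered libraries and -0.0817 to 0.110 for others). With the replicate block, 1766 genes were called (892 lower and 874 higher), in place of 2910. Of the other nucleotide genes, 3 were then lower and 1 higher, and 13 S phase genes were lower and 4 G2M genes higher. With that block, edgeR adjusted p rose to 0.0521 for CCNE2, 0.0535 for DGUOK, 0.0610 for UCK2, 0.0763 for UHRF1, 0.0779 for NT5C2, 0.0926 for TOP2A and 0.100 for UPP1, so these lost their calls. The DESeq2 Wald test called 12 of the other nucleotide genes lower and 6 higher. With at least 2-fold required as well, 473 genes were called.

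With single libraries left out, genes called ran from 1322 to 3616, those lower from 681 to 1734 and those higher from 619 to 1882. The 9 genes called lower ran from 1 to 3, the other nucleotide genes lower from 2 to 9 and higher from 1 to 5 (median -0.110 to -0.0525), S phase genes lower from 6 to 30, G2M genes lower from 1 to 3 and higher from 0 to 15, and genes near DTYMK from 0 to 2. The lowest counts came without shEHD1+Dox replicate 1 or 3. The cause was not tested, beyond the smaller number of libraries. In the narrower promoter window, from 100 bases before the start, 1 of the 9 held the cell cycle homology word and 2 the SP box.

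With 3 libraries a group, the SE of the log2 fold change of these genes ran from 0.08 to 0.17. For TYMS, RRM1 and DUT it was larger than the size of the log2 fold change. Power at changes of that size was not tested.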
